A study of Mus musculus with 18 samples.

Results

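The comparison set murine embryonic stem (ES) cells kept for 3 days on a layer of PA6 stromal cells (ES/PA6 co-cultures) against PA6 cells grown alone for the same time (PA6 mono-cultures), both in serum-free medium without growth factors (-GFs). It used 6 of the 18 arrays of the series, 3 co-cultures and 3 mono-cultures. The other 12 arrays are cultures of the same 2 kinds that received the growth factors FGF2 (20 ng/ml) or BMP4 (10 ng/ml), doses as the labels give them (the study's methods state a lower one for BMP4). The study profiled pure PA6 cultures next to the co-cultures to separate signals of the ES cells from those of the stroma. This comparison sets the 2 kinds of culture side by side in the absence of any added factor. By itself it does not assign a transcript to a cell type. Total RNA of each well was labelled and hybridised to Illumina MouseWG-6 v2.0 BeadChips, with 1 fluorescence intensity read for each probe. The transcripts described are the probes detected (detection p under 0.05 against the negative control beads) on at least 3 of the 6 arrays. These were 20162 of 45281 probes, and with the brightest kept probe standing for its gene they gave 14495 genes.

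PA6 is a line of preadipocytic stromal cells of mouse bone and is used as a feeder on which ES cells enter differentiation in chemically defined medium, mainly toward neural cells when nothing is added. The ES line carries an EGFP gene knocked into the locus of the microtubule protein tau (Mapt), and it was maintained on growth-arrested mouse embryonic fibroblasts before plating on PA6. Fibroblasts carried over from that step would be stromal cells that the mono-cultures lack, and their part in any result was not tested. The RNA of a co-culture well is a mixture of both cell types. A lower stromal transcript can therefore reflect dilution by RNA of ES-derived cells, fewer stromal cells or less of the transcript per stromal cell. These cannot be told apart. Likewise, a transcript found in the co-culture and not in PA6 alone can come from ES-derived cells or from PA6 cells that changed in their presence.

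As background, ES cells hold a small circuit of transcription factors (Oct4, Sox2, Nanog and partners) that keeps them unspecialised. On leaving this naive state they pass through a primed, epiblast-like stage marked by Otx2, Pou3f1 and Fgf5, and only then turn on germ layer genes. They divide fast and form epithelial contacts through E-cadherin. Bone stromal cells are mesenchymal: they make collagen matrix, express Twist and Prrx factors, secrete niche factors such as Cxcl12, and in the case of PA6 can turn into fat cells.

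The co-cultures gave 19862 to 20191 detected probes per array, the mono-cultures 17125 to 18109. After normalization, arrays of the co-cultures correlated with each other across genes at 0.982 to 0.987, arrays of the mono-cultures at 0.991 to 0.993, and arrays of the different cultures at 0.773 to 0.814. The median SD of a gene over 3 arrays on the log2 scale was 0.203 for co-cultures and 0.144 for mono-cultures. All 10 tested ES cell markers were higher in the co-cultures, with no overlap between arrays. The PA6 stromal markers lay lower on every co-culture array in 9 of 10 cases. Over all genes, 74.6% did not overlap in either direction and 39.9% lay lower on every co-culture array. The markers of both cell types were present in the co-culture, and 8 of the 10 ES markers were detected on no mono-culture array. These 8 passed the detection filter only through the co-cultures, which largely set their direction.

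Promoters are shown for 3 listed groups that a reader may want to see at sequence level: DNA replication and mitosis genes, interferon-inducible and antigen presentation genes, and a pluripotency factor. The bases before their annotated starts are shown in gene orientation (RefSeq, GRCm38.p6), with every match in the printed window in capitals, of the CCAAT box (searched as CCAAT on both strands), of the core of the interferon response element (searched on both strands as GAAA, any 2 bases and GAAA) or of the octamer bound by Oct4 (searched as ATGCAAA on both strands). The B2m window holds an interferon core and a CCAAT box in reverse (ATTGG), and the other 4 hold matches of 1 motif. The windows are those of Ccnb1 (chr13:100786487-100786636, minus strand), Aurka (chr2:172370571-172370720, minus strand), Ifit3 (chr19:34583379-34583528, plus strand), B2m (chr2:122147437-122147686, plus strand) and Nanog (chr6:122707339-122707488, plus strand).
Ccnb1: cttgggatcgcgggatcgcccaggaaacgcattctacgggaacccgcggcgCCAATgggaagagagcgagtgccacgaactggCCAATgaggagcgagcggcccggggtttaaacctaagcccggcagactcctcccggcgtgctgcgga
Aurka: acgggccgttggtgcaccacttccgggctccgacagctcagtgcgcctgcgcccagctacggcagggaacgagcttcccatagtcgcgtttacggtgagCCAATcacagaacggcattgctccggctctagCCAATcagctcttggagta
Ifit3: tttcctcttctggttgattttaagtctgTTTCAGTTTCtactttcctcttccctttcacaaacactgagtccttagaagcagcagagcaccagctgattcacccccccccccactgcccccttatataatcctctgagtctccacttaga
B2m: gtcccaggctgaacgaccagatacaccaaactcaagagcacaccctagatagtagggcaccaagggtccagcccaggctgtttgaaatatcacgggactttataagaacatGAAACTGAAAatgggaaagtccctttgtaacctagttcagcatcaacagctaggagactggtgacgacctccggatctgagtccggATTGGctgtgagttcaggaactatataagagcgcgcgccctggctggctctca
Nanog: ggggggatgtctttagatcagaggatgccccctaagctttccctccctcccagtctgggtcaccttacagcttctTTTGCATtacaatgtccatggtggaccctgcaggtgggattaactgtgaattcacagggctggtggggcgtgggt

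Culture type changed a large share of the measured transcripts. Of 14495 genes, 6211 were called (42.8%), with 3100 higher in the ES/PA6 co-cultures (21.4%) and 3111 lower (21.5%), at a Benjamini-Hochberg adjusted p under 0.1 in limma and an absolute log2 fold change over 1. An unadjusted p under 0.05 was reached by 10655 genes, and in 10819 (74.6%) the 3 co-culture arrays did not overlap with the 3 mono-culture arrays. The median log2 difference over all genes was -0.12, and all changes below are to be read against that level. The split of calls depends on the filter: with detection required on all 6 arrays, which removes the transcripts absent from one culture, 3891 genes were called and 37% of these were higher, against 49.9% here.

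The numbers higher and lower were close, but the sizes were not. Genes called higher had a median log2 fold change of 1.94, with quartiles of 1.37 and 3.14, and those called lower had a median of -1.56, with quartiles of -1.97 and -1.23. Beyond a log2 fold change of 3 there were 831 higher genes and 120 lower genes, and beyond 4 there were 439 and 22. The extremes were 9.59 for DPPA5 and -6.02 for S3-12 (now Plin4). Differences of dim transcripts are understated, since the background step adds an offset to every value.

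**Figure D1:**
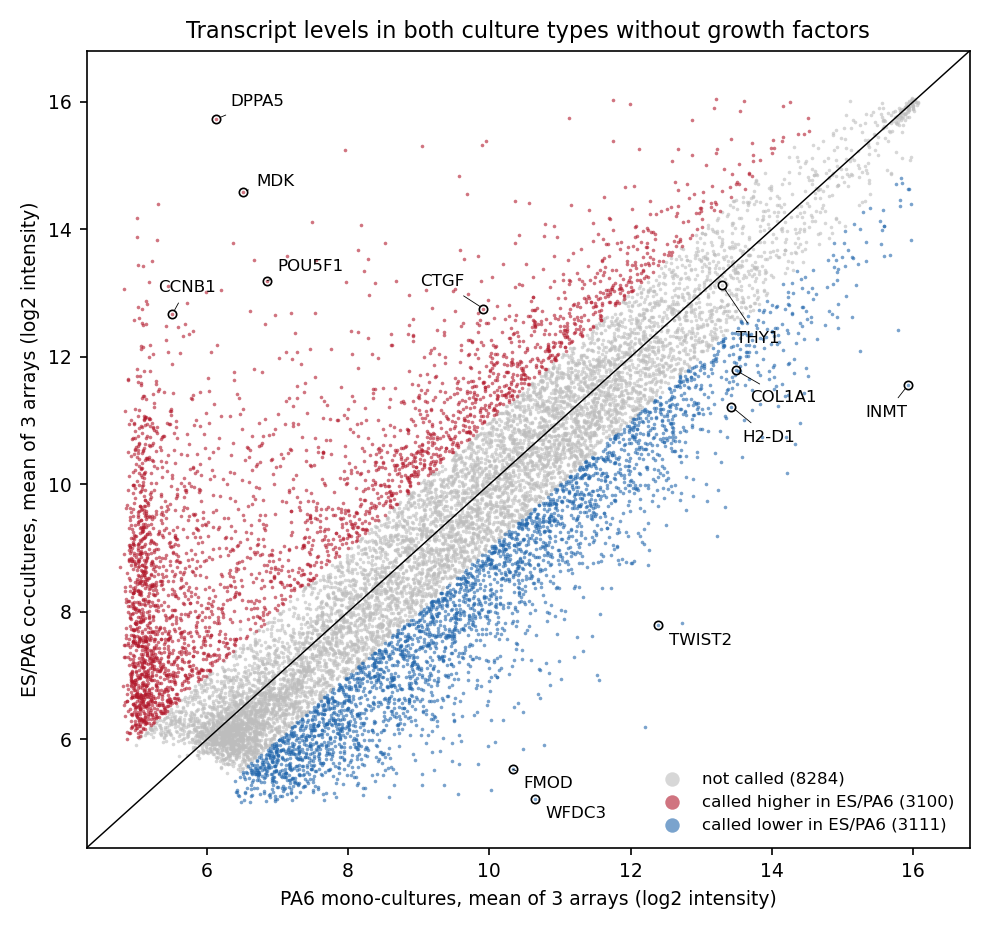
Mean log2 intensity over 3 arrays of the PA6 mono-cultures (horizontal) and the ES/PA6 co-cultures (vertical), 1 point per gene, with calls in colour and equality as a line. The 3100 higher genes include a column at the left edge, at background in PA6 alone, whereas most of the 3111 lower genes run in a band below the line and remain well above background in the co-cultures.

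Detection sorted the transcripts by where they could be measured. A set of 1704 genes (11.8%) was detected on all 3 co-culture arrays and on no mono-culture array, and 1432 of them were called higher. The reverse set, detected on all 3 mono-culture arrays and on no co-culture array, had 301 genes (2.08%), of which 281 were called lower. The definition of each set largely fixed the direction of its calls. The smallest signal that counted as detected was 5.86 to 5.90 (log2) on the co-culture arrays and 6.19 to 6.39 on the mono-culture arrays. Its part in the unequal sizes of the sets was not tested. Both cultures gave a signal on all their arrays for 10639 genes (73.4%), where 1439 were higher and 2445 lower, and the remaining 1851 genes were detected on part of the arrays. At a stricter detection p of 0.01 the exclusive sets held 1460 and 379 genes. For a gene undetected in a whole group the fold is given as a lower bound, which sets the brighter group's mean against a floor: on each dim array, the probe's reading or, if larger, the smallest signal that counted as detected.

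The 15 largest rises included several genes known from pluripotent cells. DPPA5 (now Dppa5a), a KH-domain RNA-binding protein of pluripotent cells, read 15.86, 15.57 and 15.75 with ES cells and 6.10, 6.47 and 5.83 without (log2 intensity). Its log2 fold change was 9.59 ± 0.171 (SE; limma adjusted p 3.36e-16), and its second probe gave 10.76. BEX4 was at 14.17, 14.05 and 14.32 against 4.93, 5.07 and 5.05, at least 236-fold higher (adjusted p 2.17e-18). The others among the 15 largest rises were UPP1, which cleaves uridine (at least 274-fold), DPPA4, a chromatin protein of pluripotent cells (at least 192-fold), the glucose transporter SLC2A3 (at least 184-fold), FXYD6 (at least 141-fold), RPS4Y2 (now Rps4l), NIPSNAP1, XLR4A, the secreted growth factor MDK, the Oct4 target FBXO15, E130012A19RIK (now Epop), ESRRB, TEX19.1 and OTX2. None of these 15 overlapped between cultures, which their choice required. XLR4A and RPS4Y2 belong to families with close copies, so the member measured is uncertain.

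All 19 tested factors shared by naive and primed cells were called higher (against 21.4% of all genes). Of these, 16 were detected on no mono-culture array and passed the filter only through the co-cultures, so the count was largely set by it. POU5F1, the gene of Oct4, was at 13.2 ± 0.17 (SD, n = 3) in the co-cultures and read 6.59, 6.88 and 7.09 in PA6 alone, where its probe was detected on all 3 arrays. The log2 difference was 6.34 ± 0.152 (SE) with an adjusted p of 8.43e-15. NANOG read 12.84, 11.83 and 12.74 against 5.86, 5.23 and 5.68 and was at least 72-fold higher. SOX2 read 10.59, 9.86 and 10.75 against 5.28, 5.02 and 5.16 and was at least 17.2-fold higher. NANOG, SOX2, ESRRB and ZFP42 shared their lowest co-culture value on replicate 2. UTF1, SALL4 and the Nodal pathway genes NODAL, GDF3, LEFTY1 and LEFTY2 were also called, with log2 fold changes from 4.18 (LEFTY2) to 7.66 (SALL4).

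Genes of the naive state divided. Of 16 tested, 11 were called higher (68.8%, against 21.4% of all genes), led by DPPA5, FBXO15, ESRRB and KLF5. Of these 11, 10 were detected only in the co-cultures and passed the filter through these alone, which largely set their direction. ESRRB, a nuclear receptor of the naive circuit, read 13.20, 12.17 and 13.25 against 5.04, 5.23 and 5.15. The 5 without a call were STAT3 (-0.68), KLF4 (-0.59), SOCS3 (-0.35), TBX3 (0.10) and KLF2 (0.93). Each of the 5 was measured in PA6 alone: KLF4 read 10.26, 10.23 and 9.96 there and 9.86, 9.29 and 9.55 in the co-cultures, and KLF2 read 10.85, 10.99 and 10.87 and then 12.02, 11.54 and 11.95. For KLF2, leaving out co-culture replicate 2 gave 1.08 and a call. These 5 genes therefore have no clear origin in the co-culture.

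Genes of the primed epiblast were measured too. Of 16 listed 13 were tested and 11 called higher (84.6%, against 21.4% of all genes). However, 10 of the 13 were detected on no mono-culture array, so the filter largely set this direction. OTX2, a homeodomain factor of the primed state and forebrain, read 12.71, 12.85 and 12.68 against 4.97, 4.96 and 5.31 (at least 87.3-fold higher, adjusted p 9.75e-16). POU3F1 was at 12.47, 12.55 and 11.54 against 5.14, 5.19 and 5.27 (at least 59.2-fold), and FGF5 at 10.48, 10.83 and 10.01 against 4.86 to 5.0 (at least 17.6-fold). DNMT3B, a de novo DNA methyltransferase, was detected in both and rose from 9.05 ± 0.13 to 15.31 ± 0.16 (SD, n = 3). SALL2 (0.58) and TEAD2 (0.92) were not called, though TEAD2 was without co-culture replicate 1 (1.05) or mono-culture replicate 2 (1.01). Naive and primed genes were thus measured side by side in the same wells, and whether in the same cells these arrays cannot show.

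The replication and mitosis list moved almost as a block. Of 32 tested genes 31 were called higher (96.9%, against 21.4% of all genes) with a median log2 fold change of 4.23. CCNB1, the mitotic cyclin, read 12.83, 12.51 and 12.65 against 5.69, 5.79 and 5.05 (at least 82.4-fold, adjusted p 1.39e-11). AURKA, a mitotic kinase, read 12.40, 12.26 and 12.40 against 5.52, 5.55 and 6.16 (at least 66.5-fold). The topoisomerase TOP2A was at least 73.9-fold and the replication factor MCM10 at least 93.0-fold higher. MCM5, a subunit of the replicative helicase, was detected in both, at 14.05, 14.19 and 14.12 against 7.50, 7.40 and 7.58. KIF20A (-0.14, adjusted p 0.7) was the only tested member without a call. Transcripts of 9 members, among them CCNB1, AURKA, TOP2A and MCM10, were detected on no mono-culture array. These 9 passed the filter only through the co-cultures, which largely set their direction. Another 18 were detected on all arrays of both cultures.

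**Figure D2:**
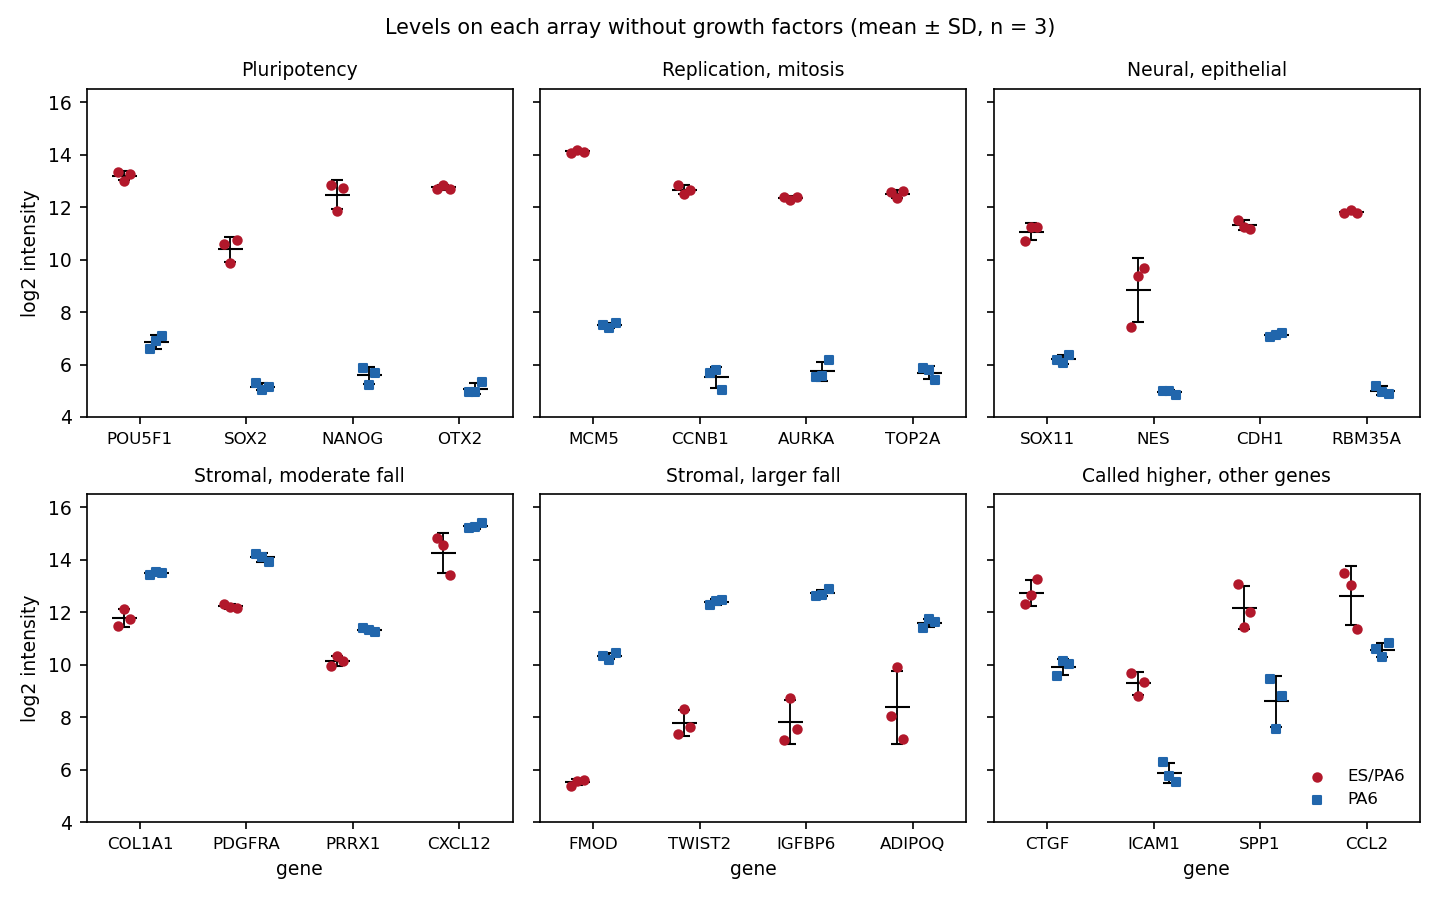
Log2 intensity on each array for 24 genes in 6 groups, ES/PA6 co-cultures as circles and PA6 mono-cultures as squares, with mean and SD of 3 arrays. Pluripotency and cell cycle genes differ by far more than their spread, the stromal genes at lower left fall by about 1 to 2 log2 units and stay bright, and those at lower centre fall further.

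CDK inhibitors, D cyclins and related genes showed no common direction. Among 16 tested, 3 were higher and 4 lower, with a median of 0.03. These shares lie near those of all genes, 21.4% higher and 21.5% lower, so the counts do not set the list apart. CDKN1C, an imprinted inhibitor, read 11.80, 12.45 and 12.71 against 5.63, 5.91 and 5.44 (at least 65.0-fold higher). CCND1 (1.79) and TRP53 (1.08, and 0.87 without a call under median scaling) were the other risers. CDKN2C fell by 2.69 ± 0.223 (SE) on the log2 scale and CDKN1B by 2.60 ± 0.239, while CDKN1A differed by -0.05.

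Promoter letters were compared as a description, over the 8958 tested genes with an entry in RefSeq's promoter windows, within 250 bases before the start. The CCAAT box shown above for Ccnb1 and Aurka was found in 17 of 24 replication and mitosis genes (70.8%) and in 37.1% of all. It was also frequent in lists that were mostly lower, in 12 of 21 interferon and antigen presentation genes (57.1%), 7 of 11 mesenchymal factors (63.6%) and 5 of 9 HOX genes (55.6%). The interferon element shown for Ifit3 and B2m was found in 7 of 21 interferon-inducible and antigen presentation genes (33.3%) and in 2.51% of all. The octamer shown for Nanog was in 2 of 11 shared pluripotency genes and in 3.15% of all, and 2 of 9 HOX genes and 2 of 16 collagens held it too. Of 3 further motifs searched, TATAAA (forward strand, 40 to 20 bases before the start), TTTGAA and TGANTCA (both strands), all tested promoters held 1.44%, 10.6% and 4.24%, and replication and mitosis genes 0 of 24, 6 of 24 and 0 of 24. Promoters of the genes exclusive to the co-cultures had a median observed over expected CpG of 0.565, those exclusive to the mono-cultures 0.568, and all tested genes 0.725.

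Early neural genes were low in number and variable. Of the 22 listed only 7 passed detection, and all 7 were called higher (against 21.4% of all genes). A gene at background in PA6 could pass only through the co-cultures, so this direction was largely set by the filter. SOX11, a neural progenitor factor, read 10.69, 11.25 and 11.25 against 6.17, 6.05 and 6.38 (at least 27.2-fold). NES, the progenitor intermediate filament, read 7.43, 9.36 and 9.69 against 4.99, 4.98 and 4.85 (at least 5.77-fold), and ZIC1 6.52, 8.29 and 10.23 against 5.04, 4.95 and 4.92 (at least 4.14-fold). The co-cultures thus spanned several log2 units in ZIC1, with replicate 1 lowest, while the mono-cultures agreed. The mean of the 7 genes was 7.79, 8.37 and 8.92 on co-culture replicates 1, 2 and 3. The same replicate was also lowest for WNT3A, a posterior WNT ligand (6.28, 8.26 and 10.42, against 4.75 to 5.21 in PA6), for HOXB7 (7.20, 7.77 and 8.87) and for EDNRB (8.15, 10.01 and 10.84). Of the 6 neuron markers 3 were tested: STMN2 (at least 20.1-fold), MTAP2 (now Map2, at least 7.20-fold) and ELAVL3. MAPT was called, at least 1.13-fold higher, and its locus is the one altered in this ES line.

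Markers of other fates were scarce. In the list of mesoderm and endoderm genes only 5 of 21 passed detection. LMO2, a blood and vessel cofactor, was at least 3.21-fold higher (adjusted p 3.97e-06), whereas GATA6, an endoderm factor that PA6 cells express too, fell from 12.31 ± 0.08 to 9.83 ± 0.31 (SD, n = 3) and TBX6 fell by 1.81. Of 16 listed endothelial genes 11 were tested and 6 called higher (54.5%, against 21.4% of all genes). Of these 6 only EGFL7 was detected in PA6 alone, and the other 5 passed the filter only through the co-cultures, which largely set their direction. The junction molecule PECAM1, also found on ES cells, read 9.56, 8.11 and 9.29 against 5.84, 5.08 and 5.0 (at least 6.44-fold), and CLDN5 and EGFL7 were higher too. The VEGF receptors KDR (-0.11) and FLT1 (-0.84, adjusted p 0.062) and the angiopoietin receptor TEK (0.43) were not called. Of the 7 endothelial cell markers, 4 were tested and 2 called. The macrophage and blood markers gave 4 of 8 tested, with CD68 higher (at least 4.81-fold), LYZ2 lower (at least 2.02-fold), and CSF1R (-0.60) and HBB-B1 (-0.18) without a call.

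Of 18 listed germ line genes, many of which ES cells transcribe, 10 were tested, 7 of them detected only in the co-cultures and passing the filter through these alone. Calls were higher in 9 (90.0%, against 21.4% of all genes). The 9 were led by TEX19.1 (at least 92.4-fold) and the X-linked homeobox gene RHOX5 (14.15, 13.26 and 13.96 against 6.58, 6.55 and 5.99). Only DDX4, the germ cell helicase, was not called (0.47). Imprinted genes were called higher in 7 of 14 (50.0%, against 21.4% of all genes). They were lower in 3 (21.4%, near the 21.5% of all genes). Among the 14, 5 were detected on no mono-culture array and passed the filter only through the co-cultures. NDN read 11.96, 12.51 and 13.10 against 4.87, 5.12 and 5.24 (at least 74.7-fold), PHLDA2 was at least 16.9-fold higher, and PEG3 (4.74), MEST (4.36) and NNAT (3.92) rose. IGF2 (-1.57), DLK1 (-1.46) and GTL2 (now Meg3, -1.31) fell. The second probe of GTL2 gave 1.21, so its direction depends on the probe. H19 did not differ by the test (0.23 ± 0.461, SE).

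Epithelial genes were higher and mesenchymal regulators lower. Of 24 listed genes of epithelial junctions and keratins 17 were tested, and 14 of these were detected on no mono-culture array, so they passed the filter only through the co-cultures and their direction was largely set by it. Calls were higher in 14 (82.4%, against 21.4% of all genes) and lower in none. CDH1, the gene of E-cadherin, read 11.51, 11.25 and 11.15 against 7.06, 7.12 and 7.19. Its log2 difference was 4.18 ± 0.184 (SE) with an adjusted p of 1.03e-11, and 1.27 at its second probe. RBM35A (now Esrp1), which sets epithelial splicing, was at least 45.3-fold higher and CLDN4 at least 16.2-fold. GRHL2, KRT8 and KRT18 were at least 7.29-, 11.2- and 5.80-fold higher.

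Of the 19 tested mesenchymal transcription factors 15 were lower (78.9%, against 21.5% of all genes) and 1 higher, with a median of -1.78. TWIST2 read 7.38, 8.34 and 7.64 in the co-cultures and 12.28, 12.42 and 12.48 in PA6 alone (-4.61 ± 0.284, SE, adjusted p 6.34e-10). Its relative TWIST1 differed by -1.09 and lost its call at -0.82 without co-culture replicate 1. SNAI2 (-2.31), ZEB2 (-1.98), ZEB1 (-1.82), EBF1 (-1.91) and PRRX1 (-1.18) fell, and SNAI1 (-0.78), TCF4 (-0.54) and EBF2 (-0.38) were not called. OSR1 was the exception at 1.13, but its second probe gave -2.68. In the HOX list, whose members mark body position, 9 of 15 tested were lower (60.0%, against 21.5% of all genes). HOXD9 (-2.87) and HOXA5 (-2.35) led, and HOXB7 alone was higher (at least 3.14-fold).

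Stromal transcripts fell by unequal amounts. Over the 10 PA6 markers the log2 differences ran from -2.15 for VCAM1 to -0.18 for THY1, with a median of -1.55. The matrix gene COL1A1 read 11.48, 12.14 and 11.75 against 13.42, 13.54 and 13.51 (-1.71 ± 0.234, SE, adjusted p 6.39e-06). PDGFRA, a receptor typical of mesenchymal cells, read 12.34, 12.20 and 12.15 against 14.24, 14.12 and 13.93 (-1.87), while its second probe gave -0.25. THY1 read 12.74, 13.48 and 13.15 against 13.39, 13.34 and 13.15, so its arrays overlapped. DCN read 15.13, 15.17 and 15.04 against 15.86, 15.85 and 15.81, a difference of -0.72 without a call, and its 3 other probes gave -3.51, -1.97 and -3.12. The brightest DCN probe lies near the top of the measured range, and whether the difference was compressed there was not tested.

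In the collagens 7 of 21 tested genes were lower and 4 higher, with a median of -0.86. The fibril genes COL1A2 (-1.95), COL5A2 (-1.74) and COL3A1 (-1.39) fell with COL1A1, and COL16A1 fell most (-2.12). Median scaling raised the lower count to 11, and leaving out co-culture replicate 2 raised it to 12. COL9A3 read 10.83, 10.01 and 9.95 against 5.10, 5.13 and 5.03 (at least 15.6-fold higher), and the cartilage-type COL2A1 read 7.77, 9.09 and 10.24 against 5.65, 6.96 and 6.65 (2.61 ± 0.553, SE). COL18A1 (1.32) and COL9A2 (1.12) rose as well.

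Among 29 other matrix genes 17 were lower (58.6%, against 21.5% of all genes) and 1 higher, with a median of -1.64. FMOD, a small collagen-binding proteoglycan, read 5.40, 5.57 and 5.62 against 10.35, 10.20 and 10.45 and was detected on no co-culture array, at least 21.8-fold lower (adjusted p 7.61e-11). Its relative OGN read 11.94, 12.66 and 12.64 against 15.80, 15.89 and 15.68 (-3.38). The crosslinking enzyme LOX fell by 2.51. BGN read 15.94, 15.98 and 15.90 against 15.86, 15.95 and 15.91, at the top of the range, and MGP differed by 0.74. MFAP4 was the 1 riser (2.27), with the values 7.69, 8.95 and 9.41 in the co-cultures.

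Of 18 tested laminin and integrin subunits 8 were lower (44.4%, against 21.5% of all genes) and 5 higher (27.8%, near the 21.4% of all genes). The 5 risers were detected on no mono-culture array and passed the filter only through the co-cultures, which largely set their direction. LAMA1, the laminin chain of embryonic basement membranes, was at least 11.5-fold higher, ITGA3 at least 9.47-fold and LAMA5 at least 6.25-fold. ITGA1 (-2.72), LAMB2 (-2.35) and LAMA4 (-2.21) fell. The widely shared subunits ITGB1 (-0.94) and LAMC1 (-0.34) were not called, and ITGB1 was under median scaling (-1.05).

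**Figure D3:**
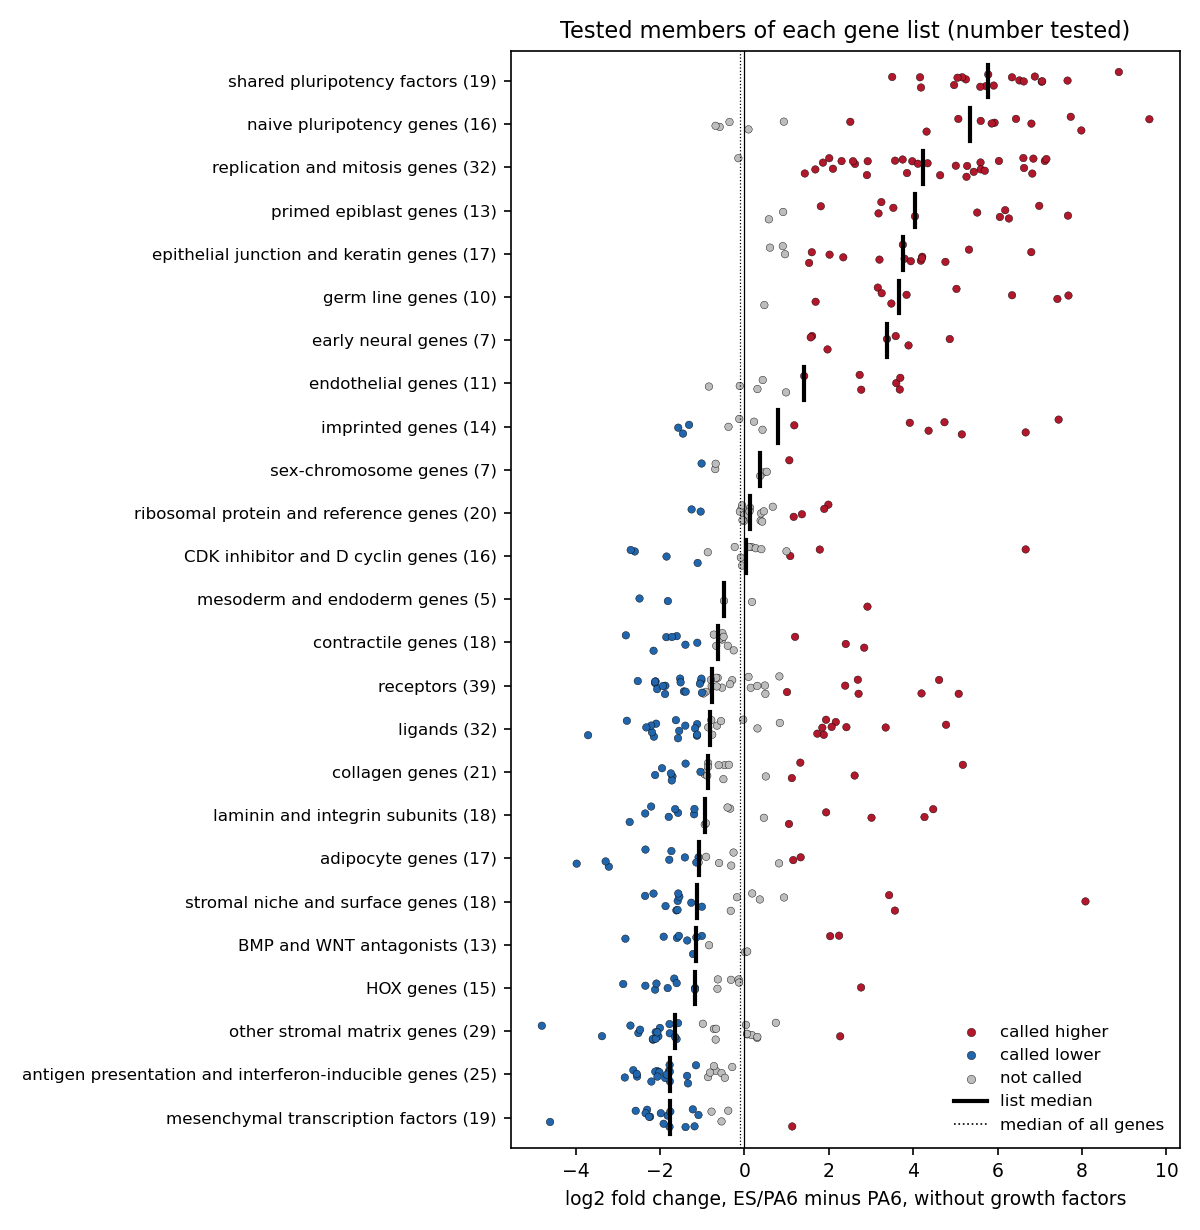
Log2 fold change of each tested member of the 25 gene lists, coloured by call, with the list median as a bar and the median of all genes as a dotted line. Pluripotency, cell cycle, epithelial and germ line lists lie to the right with medians from 3.66 to 5.78 over members that passed detection, many of them only through the co-cultures, the mesenchymal, matrix and interferon lists lie to the left with medians from -1.78 to -1.64, and the ligand and receptor lists spread to both sides.

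Genes of fat cells were lower, with a wide spread between co-culture arrays. Of 17 adipocyte genes 9 were lower (52.9%, against 21.5% of all genes) and 2 higher (11.8%, below the 21.4% of all genes). The 2 were SCD1 (1.33) and ACLY (1.16), both lipid synthesis enzymes. ADIPOQ, the gene of adiponectin, read 8.03, 9.92 and 7.18 against 11.42, 11.74 and 11.62 (-3.21 ± 0.658, SE, adjusted p 0.000357). CFD read 8.90, 10.61 and 7.39 against 11.94, 12.59 and 12.24, and the lipid droplet gene CIDEC 6.61, 8.21 and 5.32 against 10.45, 10.78 and 10.84. In all 3 genes co-culture replicate 2 was highest and replicate 3 lowest. S3-12 (now Plin4), another lipid droplet gene and the largest fall of all, had the same high array, at 5.77, 7.17 and 5.63 against 12.56, 12.16 and 11.90. PPARG, the master regulator, fell by 1.78.

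IGFBP6, an IGF-binding protein, read 7.15, 8.75 and 7.56 against 12.64, 12.68 and 12.88 (-4.91). WFDC3 was detected on no co-culture array and was at least 27.0-fold lower, FAM107A at least 17.7-fold, BC064033 at least 12.8-fold and SPEER4A at least 15.6-fold. TINAG (-4.86), TNA (now Clec3b, -4.63), the natriuretic peptide clearance receptor NPR3 (-4.62), KCNAB1 (-4.51), INMT (-4.37), PI16 (-4.12) and SPEER4C (-4.07) complete the 15 largest falls with FMOD, TWIST2 and S3-12. INMT, a methyltransferase, read 15.99, 15.86 and 15.92 in PA6 alone, near the top of the range, and 12.12, 11.87 and 10.66 in the co-cultures. SPEER4A and SPEER4C belong to a family of close copies.

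Antigen presentation and interferon-inducible genes were lower. Of 25 tested 18 were called lower (72.0%, against 21.5% of all genes) and none higher, with a median of -1.77. In 23 of the 25 every co-culture array lay below every mono-culture array, as in 39.9% of all genes. USP18, a brake on interferon signalling, read 9.19, 9.12 and 8.34 against 11.71, 11.70 and 11.74 (-2.83 ± 0.305, SE, adjusted p 4.37e-07). IFIT3 read 9.80, 9.68 and 9.75 against 12.42, 12.09 and 12.38 (-2.55), and H2-D1, a class I heavy chain, 11.26, 11.73 and 10.67 against 13.24, 13.79 and 13.26 (-2.21), with -2.43 and 0.29 at its other probes. B2M, the class I light chain, fell by 1.36 from 15.81 to 14.46. Of the 7 genes with the promoter element, B2M, H2-T23, IFIT3 and STAT2 were called, and BST2 (-0.86, and -1.36 with a call without mono-culture replicate 3), IFITM2 (-0.46) and RSAD2 (-0.29) were not. IFITM1 (-0.54) depends on the probe and was 1.29 by the median of its probes.

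Contractile genes were lower in 7 of 18 (38.9%, against 21.5% of all genes). They were higher in 3 (16.7%, below the 21.4% of all genes). LMOD1 (-2.81), MYL9 (-2.15) and VIM (-1.72) fell. CTGF, a matrix-associated protein induced in stretched or TGFβ-treated cells, went the other way and read 12.30, 12.67 and 13.29 against 9.58, 10.13 and 10.04 (2.84 ± 0.300, SE, adjusted p 3.47e-07). Its relative CYR61 was 1.2 (adjusted p 0.0623) with overlapping arrays, and lost its call without co-culture replicate 3 (0.65) or mono-culture replicates 1 (0.83) or 2 (1.10). DES rose by 2.40. ACTA2 read 11.74, 13.82 and 14.53 against 13.85, 13.97 and 13.87, so that co-culture replicate 1 lay far below the rest.

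Niche and surface genes were lower in 10 of 18 cases (55.6%, against 21.5% of all genes). They were higher in 3 (16.7%, below the 21.4% of all genes). CSF1 (-2.35), VCAM1 (-2.15), PDGFRB (-1.58), IGF2 (-1.57), PTN (-1.54) and ANGPT1 (-1.26, and -0.77 without a call when co-culture replicate 3 was left out) fell. CXCL12, the main chemokine of marrow stroma, read 14.84, 14.57 and 13.42 against 15.20, 15.26 and 15.39, a log2 fold change of -1.01 that lost its call without co-culture replicate 3 (-0.58) or mono-culture replicate 3 (-0.96). Its other probes gave -1.87 and -1.98. MDK, a heparin-binding growth factor, read 14.44, 14.63 and 14.69 against 6.98, 6.4 and 6.14 (8.08 ± 0.208, SE). SPP1, the gene of osteopontin, was highest on co-culture replicate 1 (13.08) and lowest on replicate 2 (11.45), against 9.47, 7.57 and 8.80 in PA6 alone (3.57 ± 0.586, SE). ICAM1, detected on no mono-culture array, was at least 7.98-fold higher, a direction largely set by the filter. Of 13 tested BMP and WNT antagonists 8 were lower (61.5%, against 21.5% of all genes), with NBL1 at -2.82, FST at -1.91 and SFRP1 at -1.60. SFRP2 (2.24) and DKK3 (at least 2.36-fold) were higher.

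Of 32 tested ligands 9 were higher (28.1%) and 15 lower (46.9%), and of 39 receptors 7 were higher (17.9%) and 16 lower (41.0%). The shares higher lie near the 21.4% of all genes, and the shares lower above the 21.5%. No mono-culture array detected 8 of the ligands and 5 of the receptors. These passed the filter only through the co-cultures, which largely set their direction. Among ligands, VEGFC (at least 10.1-fold), WNT3A (at least 4.06-fold), WNT8A, PDGFB and the chemokine CCL2 were higher, and FIGF (now Vegfd) read 10.07, 10.52 and 11.29 against 14.20, 14.36 and 14.42 (-3.70). FGF18 (-2.79), EDN1 (-2.33), BDNF (-2.21) and JAG1 (-2.19) fell. TGFB1 (-0.86, and -1.04 with a call without co-culture replicate 2), VEGFA (-0.65) and BMP4 (-0.56) were not called. CCL2 read 13.51, 13.04 and 11.36 against 10.59, 10.29 and 10.84. Among receptors, KIT, the receptor of stem cell factor, read 10.26, 9.63 and 10.66 against 5.18, 5.04 and 5.10 (at least 14.8-fold), EDNRB was at least 10.3-fold and the WNT receptor FZD10 at least 8.22-fold higher, and FGFR1 (-2.53), FZD4 (-2.12), TGFBR3 (-2.12) and EGFR (-2.11) fell.

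Both genes were tested in 23 of 29 listed ligand and receptor pairs, some of which share a gene, such as PDGFRA or GAS6. Of all genes 21.4% were called higher and 21.5% lower, so pairs of unrelated genes can also be called in opposite or like directions. How often they are was not tested. In 7 of the 23 pairs the genes were called in opposite directions. The ligand was lower and the receptor higher in 4: EDN1 with EDNRB, BDNF with NTRK2, CXCL12 with CXCR4, and GAS6 with TYRO3. GAS6 read 13.86, 14.08 and 13.54 against 15.90, 16.02 and 15.99, and CXCR4 6.50, 7.45 and 8.76 against 5.23, 5.28 and 5.03. The ligand was higher and the receptor lower in 3: FGF4 with FGFR1, PDGFB with PDGFRB, and PDGFC with PDGFRA. In every opposite pair except GAS6 with TYRO3, the higher member was detected on no mono-culture array. Such a member passed the filter only through the co-cultures, which largely set its direction. FGF4, made by ES cells, read 9.05, 8.18 and 8.52 against 4.86, 5.13 and 5.25 (at least 4.87-fold), and FGFR1 6.67, 7.86 and 7.01 against 9.76, 9.61 and 9.74. Both members rose in 1 pair, NODAL with ACVR2B, and both fell in 3, PDGFA with PDGFRA, GAS6 with AXL, and EFNB1 with EPHB2. Beside CXCL12, several of these calls rest on values close to the threshold: TYRO3 (1.01) lost its call without co-culture replicate 3 (0.86) or mono-culture replicate 1 (0.91), PDGFA (-1.12) without co-culture replicate 2 (-0.94), and EPHB2 (-1.06) without co-culture replicate 1 (-0.97).

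**Figure D4:**
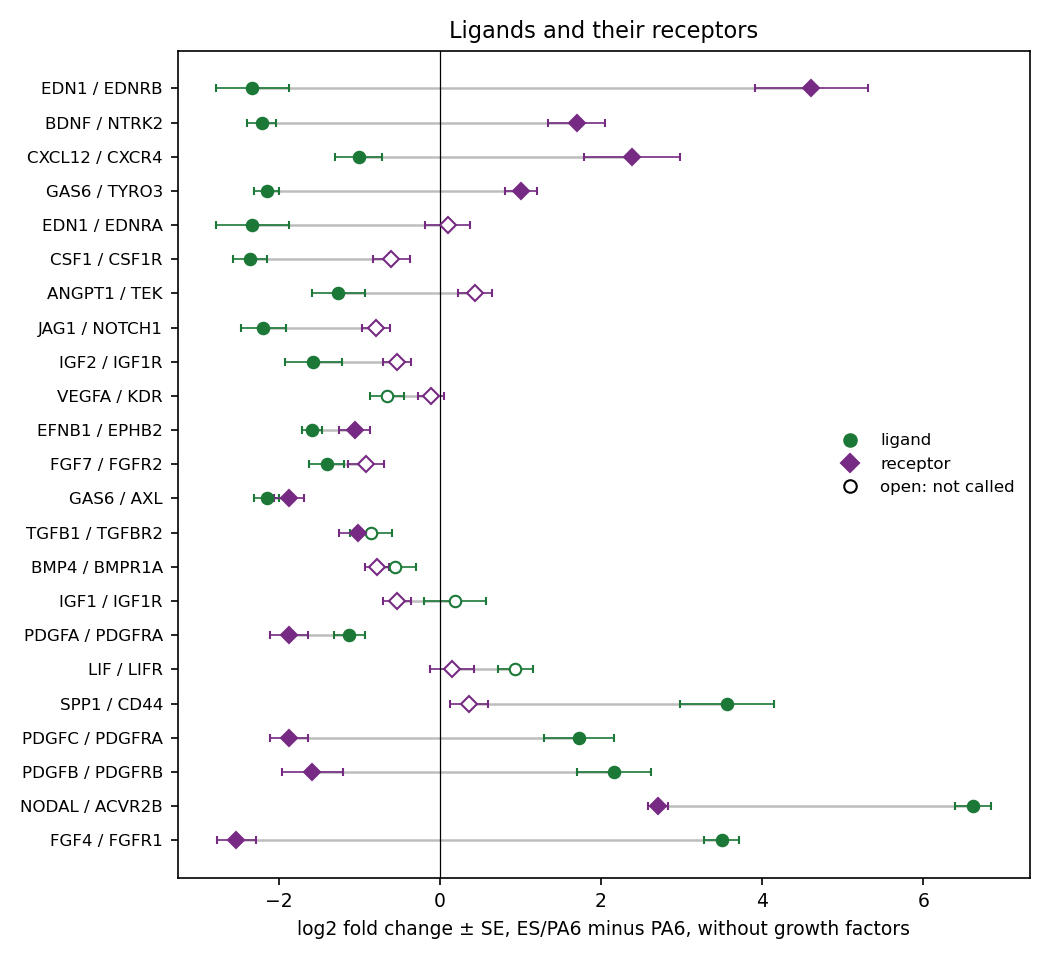
Log2 fold change ± SE (ES/PA6 minus PA6) of ligands (circles) and receptors (diamonds) in the 23 pairs with both genes tested, open where not called. The pair of EDN1 and EDNRB lies at -2.33 and 4.61, and that of FGF4 and FGFR1 at 3.5 and -2.53.

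Of 20 tested ribosomal protein and reference genes 4 were higher (20.0%) and 2 lower (10.0%), with a median of 0.13. All genes gave 21.4% and 21.5%. TBP, the reference gene of the study's PCR, read 10.45, 10.69 and 10.94 against 9.95, 10.03 and 10.08, a log2 difference of 0.67 ± 0.115 (SE) without a call. ACTB differed by -0.05. The glycolytic genes GAPDH (1.99) and PGK1 (1.89) rose, and HPRT1 fell by 1.25. Y-linked transcripts were present in both cultures, with DDX3Y at 12.15, 12.33 and 12.18 against 13.20, 13.51 and 12.98. DDX3Y (-1.02) lost its call without co-culture replicate 1 (-0.98) or 3 (-1.0) or mono-culture replicate 2 (-0.88).

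The same difference between culture types was measured again on the arrays that received a factor, which share no array with this comparison. With FGF2 5727 genes were called (39.5%) and with BMP4 5995 (41.4%). Of the 3100 genes higher here, 2497 (80.5%) were also higher with FGF2, where they made up 87.6% of 2852 higher genes, and 2725 (87.9%) with BMP4, 91.5% of 2978. Of the 3111 lower genes, 2282 (73.4%) were lower with FGF2, 79.4% of 2875, and 2604 (83.7%) with BMP4, 86.3% of 3017. Opposite calls numbered 14 and 8 with FGF2 and 2 and 0 with BMP4. In both media 2332 higher and 2066 lower genes were called the same way, and 210 higher and 291 lower genes in neither. A direct test of the change in this difference (interaction contrast, limma, same thresholds) called 1054 genes with FGF2 (7.27%), 569 of them toward the co-cultures (3.93%) and 485 toward PA6 alone (3.35%). With BMP4 it called 82 (0.566%), 36 of them toward the co-cultures (0.248%). By list, the median of the shared pluripotency factors was 5.63 with FGF2 and 5.78 with BMP4, and that of the replication and mitosis genes 4.17 and 4.14. The primed epiblast genes had medians of 1.34 with FGF2 and 3.37 with BMP4 against 4.04 here, and the adipocyte genes -0.33 and -1.16 against -1.09, and these differences were not tested. The members entered by their detection without growth factors.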

How the data were processed

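Samples were grouped by GEO's labels, which describe 1 well per condition for each biological replicate. The authors labelled the RNA with biotin and read the arrays with GenomeStudio 2011.01 (submitters' processing notes). The deposited values are non-normalized probe intensities on a linear scale, each with a deposited detection p-value against the negative control beads of the array. From the table of 45281 probes, 5 stray lines with shifted cells were left out, and no array was identical to another (0 pairs).

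Intensities were background-corrected, quantile normalized and brought to log2 with neqc of limma 3.58.1 (R 4.3.3, offset 16, negative controls inferred from the detection p) over all 18 arrays. The study's methods name a cubic spline, which was run as an alternative. The offset understates differences of dim genes. Probes detected (p under 0.05) on at least 3 of the 6 -GFs arrays were kept, and the brightest probe over all arrays stood for its gene. Of the 14495 genes 4011 had more than 1 kept probe, and in 36 of these the probes passed a log2 fold change of 1 in both directions. A current symbol (RefSeq, GRCm38.p6) was found for 11936 names.

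One limma model with 6 group means was fitted on the 18 arrays. Calls followed the thresholds of the study's methods (absolute log2 fold change above 1, adjusted p by Benjamini-Hochberg below 0.1), and all adjusted p-values are from this fit. The number of arrays limits the precision, since the smallest exact permutation p for 3 against 3 is 0.1. The script was tested on simulated data. Replicates are numbered wells, so p-values measure the spread between these wells. The genes named are members of 25 gene lists and 5 marker lists, 29 ligand and receptor pairs (1 more is not reported here), TBP and POU5F1, and the 15 largest rises and falls without overlap between arrays. The comparison and the lists were chosen with earlier results of these data known. Motifs were searched in the 250 bases before each start. Figures were drawn with matplotlib 3.10.9.

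The alternatives were quantile or cubic spline normalization without background correction, median scaling, the 6 arrays alone, other detection filters, the median of a gene's probes, other variance models, array weights, a replicate block, other thresholds and leaving out each array.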

Additional observations from a re-analysis of the deposited data

Results flagged for a closer look

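Among the 30 genes with the largest rises and falls, the difference between culture types was itself compared between media in the same limma fit (an interaction contrast, called at the same thresholds). With FGF2 the excess of the co-cultures was smaller for UPP1 (-1.66 on the log2 scale, adjusted p 0.000358) and OTX2 (-2.46, adjusted p 3.98e-06) and larger for ESRRB (1.76, adjusted p 0.00255). The deficit of the co-cultures was smaller with FGF2 for 12 of the 15 largest falls. Of all 14495 genes 3.93% were called in this direction and 7.27% in either. The change was 2.91 for S3-12 (adjusted p 0.0115), 3.51 for WFDC3 (5.5e-06) and 2.01 for IGFBP6 (0.0208). It was 4.14 for TINAG (2.26e-07), 4.62 for FAM107A (9.25e-07) and 4.67 for FMOD (8.71e-07). For TNA it was 3.76 (2.93e-05), for NPR3 2.54 (0.000142) and for TWIST2 3.06 (0.000156). For KCNAB1 it was 2.39 (0.000314), for BC064033 3.98 (3.39e-07) and for PI16 3.03 (0.00682), each an adjusted p from limma. With BMP4, where 0.566% of all genes were called in either direction, the deficit was smaller for TINAG (2.03, adjusted p 0.00199) and BC064033 (2.52, adjusted p 0.000504). The genes were picked for extreme differences without growth factors on the same -GFs arrays, so a smaller difference in another medium is in part set by that choice. For FAM107A and FMOD the log2 difference between culture types was -0.21 and -0.13 with FGF2, against -4.82 and -4.80 without growth factors. Whether the mono-cultures or the co-cultures account for these interactions is not separated by the contrast.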

How the results depend on the processing

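Over 22 other settings, the 15 largest rises and 15 largest falls kept their calls in every setting that tested them. Called genes numbered 3891 (1441 higher) with detection required on all 6 arrays, 11000 (5092 higher, 5908 lower) with no fold threshold and 2220 (1481 higher, 739 lower) beyond a log2 fold change of 2, where fewer genes are tested or the threshold itself moves. Without background correction 4611 were called by quantile and 4614 by spline normalization. Leaving out each array in turn gave 6087 to 6410 calls, 3053 to 3169 higher and 3034 to 3241 lower. The median log2 difference of all genes ran from -0.238 to -0.052 across settings. Of 335 named genes with a call, 285 lost it in no setting other than the log2 threshold of 2, and of 140 without one, 105 gained it in none other than the absence of a fold threshold. The direction turned for IFITM1 (1.29) and OSR1 (-0.77) with the median of a gene's probes, since their probes disagree. Detection on all 6 arrays leaves out the genes that are at background in PA6, and with it only 2 of the shared pluripotency factors and none of the early neural genes were called.

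Same-numbered arrays deviated together in the co-cultures (9 correlations across genes of 0.331 to 0.528). Correlations were lower in the mono-cultures (0.0617 to 0.173) and across culture types (-0.0306 to 0.189 in 27 pairs). In the 3 pairs across types without growth factors they were 0.0766 to 0.173, against -0.139 to -0.00916 where the numbers differed. The numbers were not taken to pair a co-culture with a mono-culture, and whether equal numbers share a batch was not tested. A replicate block gave 6215 calls (3101 higher, 3114 lower), and as a random block within each culture type, with a consensus correlation of 0.268, also 6215.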
